A study of Sander lucioperca with 12 samples.

Results

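Nuclear receptors are transcription factors that bind DNA and, in many cases, a small lipid-soluble ligand, and they recruit coactivators or corepressors to the genes they bind. Vitamin D, thyroid hormone, retinoic acid, fatty acid and oxysterol receptors work mostly as pairs with a retinoid X receptor (RXR), steroid receptors mostly as pairs of their own kind, and orphan receptors have no established ligand or work without one. In the vertebrate brain these receptors are known for roles in neural development, myelination, metabolism and the control of reproduction. Here the nuclear receptor genes of the pikeperch Sander lucioperca were described by ligand class. Members were taken by symbol (the nr genes, the retinoid, thyroid, estrogen, progesterone and peroxisome proliferator-activated receptor genes), without the nr1d, nr3c and nr4a genes, and the vitamin D receptor gene vdrb, listed as LOC116067703, was added by name. This gave 45 of 32963 genes, of which 41 are receptors and 4 are cofactor genes whose symbols begin like a receptor's (ppargc1a, ppargc1b, thrap3a and thrap3b).

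Whole brains of wild young-of-the-year pikeperch from 1 reservoir were sequenced after poly(A) selection, with 1 fish per library. The 4 groups were piscivores of 2023, planktivores of 2023, piscivores of 2022 and planktivores of 2022, with 3 libraries each (12 in all), and the labels name no treatment. Piscivores came from night seining of the littoral and planktivores from night trawling of open water, so phenotype cannot be told apart from habitat, gear and body size. Sex was not distinguishable at this age. The labels give each year its own batch date, so year cannot be told apart from batch.

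The libraries held 15327406 to 33858794 counts in named genes. The share of ribosomal RNA genes was 0.137% to 0.36% of the counts in named genes in 2023 and 12.0% to 21.0% in 2022. All 12 libraries carried neuron and radial glia markers, with summed levels of 2520 to 3826 TPM (transcript counts scaled for exon length and library size) and 7104 to 10943 TPM. Other tissue was unevenly present: 8 pituitary markers summed to 4698, 4014 and 1.4 TPM in piscivores of 2023 and to 843, 6.7 and 1.1 TPM in planktivores of 2023, against 0.94 to 54.7 TPM in the 6 libraries of 2022. The genes prl, gh1, lhb, smtla and pou1f1 of that list were at 0 in at least 1 library.

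Of the 45 members, 40 had at least 1 count in every library and 33 averaged above 1 TPM over the 12 libraries (73.3% of members, beside 60.1% of all genes). The highest were the COUP transcription factor genes nr2f1a, with a mean of 71.0 TPM and a range of 42.2 to 99.1 TPM, and nr2f2, with 57.6 TPM and a range of 28.8 to 93.1 TPM, followed by the retinoid X receptor gene rxrbb, with 53.2 TPM and a range of 41.4 to 69.8 TPM. These 3 ranges overlapped. Below them came the oxysterol receptor gene nr1h3 with 25.3 TPM and the cofactor gene thrap3b with 24.5 TPM, and 13 members averaged above 10 TPM. Among the classes with a ligand, the retinoid receptors summed to 96.7 ± 8.32 TPM in piscivores of 2023 and 112 ± 18.3 TPM in planktivores of 2023 (SD, n = 3). The 4 steroid receptors taken by the rule summed to 3.96 ± 1.14 and 3.55 ± 0.04 TPM in the same groups. The genes nr3c1 and nr3c2, which the rule left out, also encode steroid receptors, so this is not the level of all steroid receptors. At the bottom, nr0b2a, nr0b2b, nr5a5 and esrrd had 78 counts between them over the 12 libraries and never more than 9 in 1 library, and they passed the filter on low counts in no comparison. A count of 3 corresponds to 0.0803 to 0.197 CPM (counts scaled to a fixed library size after TMM normalisation), depending on the library.

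**Figure D1:**
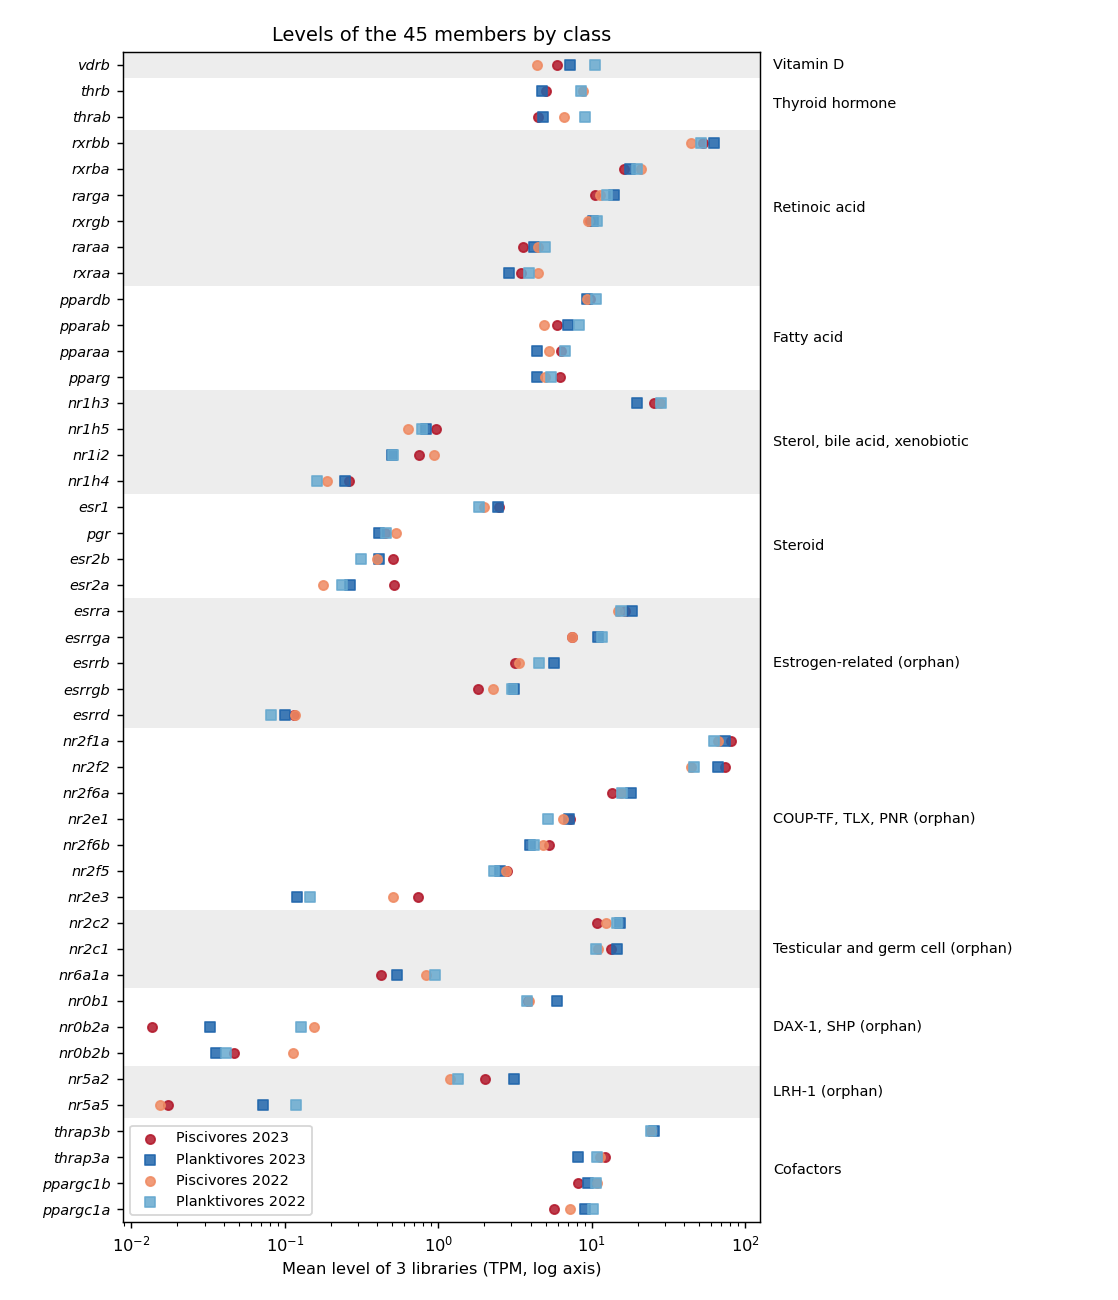
Mean level of each member in TPM (log axis) in each group of 3 libraries, ordered by class and, within a class, by level. The 4 group means of most members lie close together, and the classes spread from below 0.1 TPM (nr5a5, nr0b2b) to above 50 TPM (nr2f1a, nr2f2, rxrbb).

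Genes were called differentially transcribed (DT) where the log2 fold change (log2FC) was above 1 or below -1 and the Benjamini-Hochberg adjusted p, taken over every gene tested, was below 0.05 in edgeR's quasi-likelihood test. Standard errors (SE) belong to the log2FC. Groups of 3 libraries with no true difference separate completely, in either direction, with a probability of 0.1. Some members were named because their groups did not overlap, and the share of all genes without overlap was not computed. A lack of overlap is therefore given below as a description only. Between phenotypes in 2023, 0 of 40 tested members were DT, beside 0.168% of all genes tested. Between phenotypes in 2022, 1 of 39 was DT, beside 0.0533% of all genes: vdrb. This gene was added by name and also stands in the study's own list of transcription factors, which was chosen on these libraries, so its count is no independent evidence. Between years, 0 of 39 tested members were DT in piscivores, beside 0.356% of all genes, and 1 of 39, nr5a2, in planktivores, beside 0.971%. With all 12 libraries and year as a term, 0 of 41 members were DT between phenotypes, beside 0.298% of all genes, and 0 of 41 for the change of the phenotype difference between years, beside 0.0138%. DESeq2 likewise called 0 members in each of these 4 comparisons with 0 calls.

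At an unadjusted p below 0.05, the members split as follows. In piscivores against planktivores of 2023, 3 of 40 were higher and 6 lower, beside 8.90% and 4.78% of all genes. In piscivores against planktivores of 2022, 0 of 39 were higher and 3 lower, beside 4.30% and 2.95%. Over both years, 3 of 41 were higher in piscivores and 8 lower, beside 7.63% and 7.30%. In 2023 against 2022, 4 of 39 were higher and 5 lower in piscivores, beside 7.14% and 10.2%, and 4 of 39 were higher and 7 lower in planktivores, beside 8.53% and 11.5%. For the change of the phenotype difference, 3 of 41 were positive and 1 negative, beside 3.31% and 3.09%. The median log2FC of the members lay between -0.04 and -0.02 in all 6 comparisons, and that of all genes between -0.01 and 0.01. The comparisons over both years reuse the libraries of the single years.

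**Figure D2:**
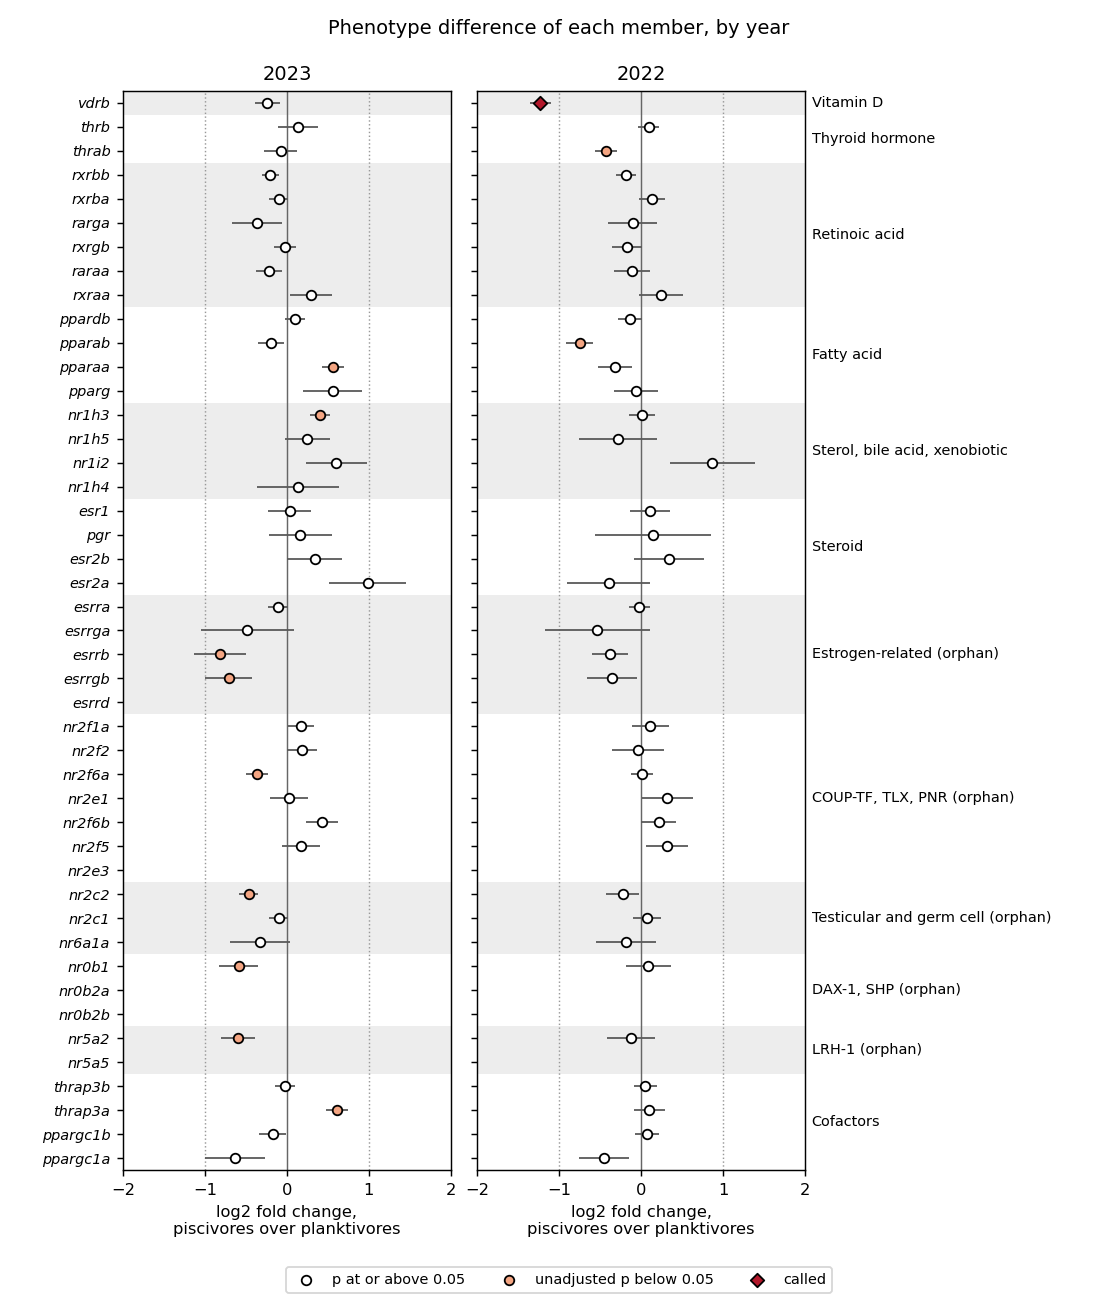
Log2 fold change of piscivores over planktivores for each tested member, in 2023 (left) and 2022 (right), with bars of 1 standard error and dotted lines at -1 and 1. Members with no point were not tested. Only vdrb in 2022 is called, and most other members lie within 0.5 of 0 in both years.

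The vitamin D receptor is known as the receptor of calcitriol, which controls calcium handling in gut, bone and kidney, and teleosts carry 2 copies of its gene. The member vdrb lies on chromosome 6, 33882331 to 33914238 (assembly SLUC_FBN_1.2, as are all positions here), and averaged 7.03 TPM. The other copy, vdra (LOC116040711, chromosome 12, 13681600 to 13764137), is outside the rule and averaged 2.29 TPM. In 2022, vdrb was lower in piscivores, with 16.9, 15.9 and 15.6 CPM against 35.5, 40.4 and 38.6 CPM in planktivores. The groups did not overlap, and the highest piscivore was far below the lowest planktivore (log2FC -1.23, SE 0.13, adjusted p = 0.0342, and 2.28e-10 by DESeq2). In 2023, vdrb had 20.4, 19.8 and 24.3 CPM in piscivores and 22.1, 29.2 and 25.9 CPM in planktivores, and the groups overlapped (log2FC -0.24, SE 0.15, adjusted p = 0.531). Over both years the log2FC of vdrb was -0.75 (SE 0.17, adjusted p = 0.0645, and 0.00287 by DESeq2). In whole-brain RNA, fewer cells of a type and less RNA per cell cannot be told apart.

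Seen by year, vdrb went in opposite directions in the phenotypes. Every piscivore of 2023 was above every piscivore of 2022 (log2FC 0.41, SE 0.13, adjusted p = 0.204), and every planktivore of 2023 was below every planktivore of 2022 (log2FC -0.57, SE 0.13, adjusted p = 0.0809). The change of the phenotype difference from year to year was 0.99 on the log2 scale (SE 0.18), which did not pass the threshold after adjustment over all genes by edgeR (adjusted p = 0.169) and did so by DESeq2 (adjusted p = 0.00197), without reaching an absolute value of 1. The phenotype differences of 2022 and over both years, the year difference in planktivores and this change all draw on the same 3 planktivore libraries of 2022. In those libraries vdrb was highest. The call in 2022 was lost when any 1 of the 6 libraries was left out (adjusted p 0.0798 to 0.209), while the log2FC stayed between -1.3 and -1.18.

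The vdra gene had 4.07, 3.12 and 5.40 CPM in piscivores of 2023 and 4.52, 6.22 and 4.06 CPM in planktivores of 2023. In 2022 it had 6.29, 4.76 and 5.20 CPM in piscivores and 11.4, 10.6 and 12.1 CPM in planktivores. As with vdrb, the 3 planktivores of 2022 were the highest of the 12 libraries, and all other libraries lay between 3.12 and 6.29 CPM. The phenotype difference of 2022 had a log2FC of -1.06 (SE 0.18), with adjusted p = 0.119 by edgeR and 0.000907 by DESeq2. The year difference in planktivores was DT at -1.2 (SE 0.19, adjusted p = 0.0411). That call was lost without any 1 of these 6 libraries except planktivore 5 of 2023 (adjusted p 0.0404 to 0.154).

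**Figure D3:**
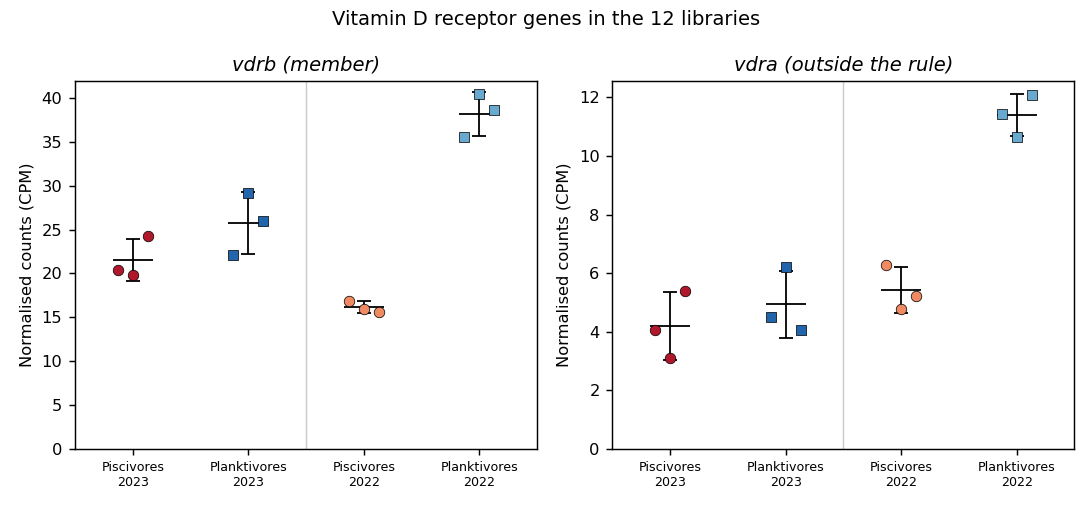
Normalised counts (CPM) of vdrb (left) and vdra (right) in each of the 12 libraries, with the mean and SD of the 3 libraries of a group. Planktivores of 2022 stand above all other libraries for both genes: 35.5 to 40.4 CPM for vdrb and 10.6 to 12.1 CPM for vdra.

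Markers of skeletal muscle moved with the phenotypes in 2022. The 7 markers found summed to 7.44 to 16.9 TPM in piscivores and 49.5 to 77.3 TPM in planktivores, and none of the 7 was at 0 in any library. In 2023 the planktivore with 60.3 TPM of these markers had the lowest vdrb of its group, 22.1 CPM, and the part of muscle tissue in vdrb was not tested. Of the 22 genes listed for vitamin D supply and targets, 10 were in the table and 8 were tested. None was DT in any of the 6 comparisons by edgeR. DESeq2 called 1 each in phenotypes of 2023, in years within piscivores and in years within planktivores, with no share of all genes beside it. At an unadjusted p below 0.05, 1 was higher in piscivores in 2023 and 1 in 2022, beside 8.90% and 4.30% of all genes, and 4 were higher over both years, beside 7.63%, with 0 lower in each. The list median over both years was 0.33, beside -0.01 over all genes. The smallest p of the list in 2022 was that of dhcr7, which uses up the precursor of vitamin D to make cholesterol. It had 12.5, 18.5 and 17.2 CPM in piscivores against 9.08, 9.56 and 10.3 CPM in planktivores (log2FC 0.75, adjusted p = 0.322). In 2023 the phenotypes overlapped for dhcr7, with 14.2, 12.0 and 10.9 CPM in piscivores and 12.4, 10.6 and 12.9 CPM in planktivores.

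The thyroid hormone receptors bind triiodothyronine and act on brain maturation and myelin genes. Both members of this class differed more between years than between phenotypes. The alpha receptor gene thrab (chromosome 22, 22787693 to 22829903) had 12.7, 12.7 and 18.4 CPM in piscivores of 2023, against 21.6, 21.5 and 22.6 CPM in piscivores of 2022. In planktivores it had 13.3, 18.7 and 14.8 CPM in 2023, against 29.3, 25.9 and 33.8 CPM in 2022. No library of 2023 reached the lowest library of 2022. The log2FC of 2023 over 2022 was -0.59 (SE 0.17, adjusted p = 0.178) in piscivores and -0.93 (SE 0.17, adjusted p = 0.0509) in planktivores, so neither passed the threshold by edgeR, while DESeq2 gave adjusted p = 0.115 and 0.0003.

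The beta receptor gene thrb (chromosome 16, 28732450 to 28927150) had 10.9, 10.4 and 13.1 CPM in piscivores of 2023, against 18.4, 21.8 and 21.3 CPM in piscivores of 2022. In planktivores it had 7.33, 13.9 and 10.6 CPM in 2023, against 19.1, 18.7 and 20.5 CPM in 2022. Here too the years did not overlap in either phenotype. The log2FC was -0.84 (SE 0.15, adjusted p = 0.0731) in piscivores and -0.87 (SE 0.22, adjusted p = 0.0955) in planktivores, and DESeq2 gave adjusted p = 0.002 and 0.0143, with both below an absolute value of 1. Between phenotypes, thrab was lower in piscivores in 2022 without overlap (log2FC -0.43, SE 0.14, adjusted p = 0.535), and in 2023 the phenotypes overlapped for both genes.

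Several measures moved with the years. Over all genes tested, the year difference went down with exon length (Spearman's rho across genes -0.26 in piscivores and -0.21 in planktivores, where genes share libraries and are not independent replicates), and over the 39 members rho was -0.22 and -0.12. The part of exon length and of the ribosomal RNA share in the year differences of thrab and thrb was not tested further. Leaving out the ribosomal RNA genes before normalisation kept the members' calls of both year comparisons as they were. The 8 myelin markers summed to 5267 to 7832 TPM in piscivores of 2023 and 6189 to 15791 TPM in piscivores of 2022, and to 7218 to 9090 TPM in planktivores of 2023 and 7858 to 10598 TPM in planktivores of 2022, so these sums overlapped between years.

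Of 19 listed genes of thyroid hormone supply and targets, 15 were in the table and 13 were tested. In planktivores, 1 was DT between years, beside 0.971% of all genes: the myelin basic protein gene mbpb, with 4.97, 6.80 and 5.65 CPM in 2023 against 13.6, 10.6 and 11.7 CPM in 2022 (log2FC -1.04, SE 0.18, adjusted p = 0.0494). The adjusted p rose above 0.05 with any 1 library left out (up to 0.183). In piscivores, the same list had 1 higher and 3 lower in 2023 at an unadjusted p below 0.05, beside 7.14% and 10.2% of all genes. The gene dio2, which activates thyroid hormone, had the smallest p of the list in 2022. It had 1.57, 1.51 and 2.00 CPM in piscivores against 0.847, 0.574 and 0.543 CPM in planktivores (log2FC 1.39, SE 0.34, adjusted p = 0.357). In 2023 the phenotypes overlapped for dio2, with 0.857, 0.636 and 1.01 CPM in piscivores and 1.04, 0.853 and 0.528 CPM in planktivores.

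**Figure D4:**
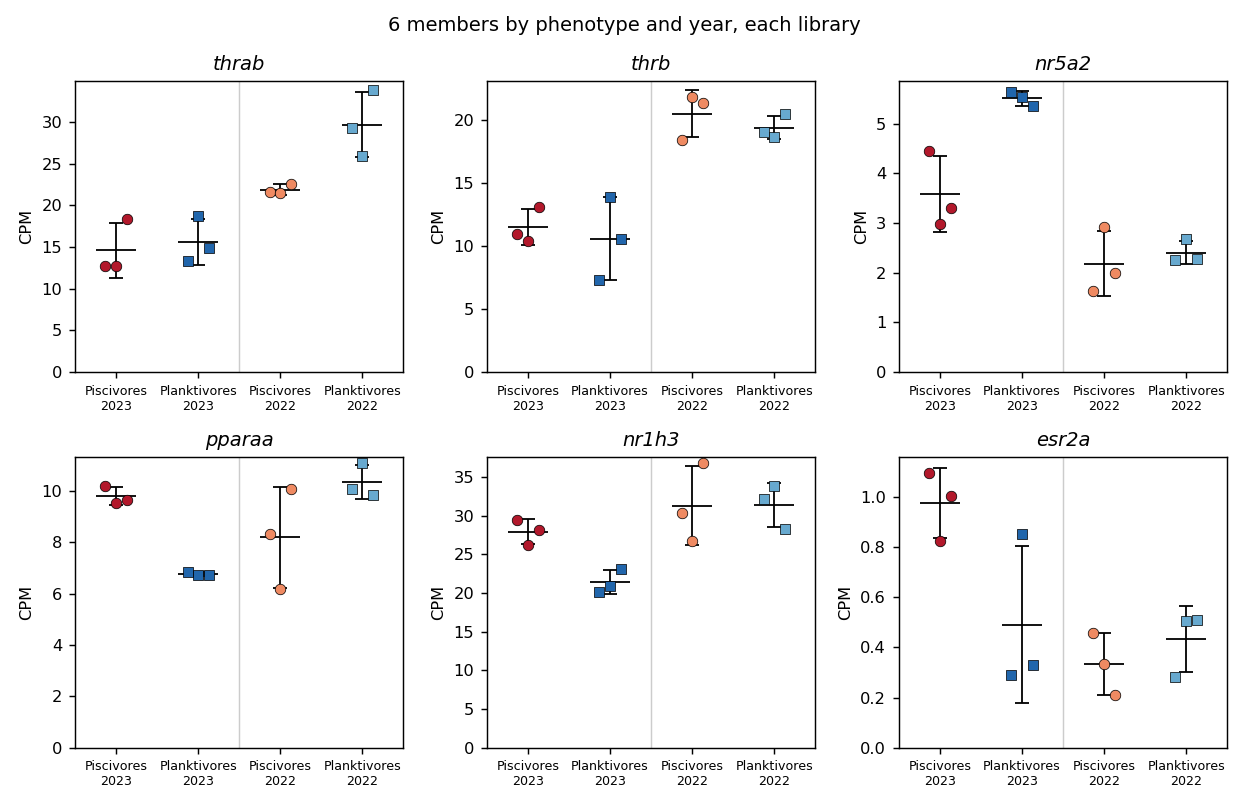
Normalised counts (CPM) of 6 members in each library by phenotype and year, with the mean and SD of 3 libraries. In thrab and thrb the libraries of 2023 lie below those of 2022 in both phenotypes, in nr5a2 above, and the group means of pparaa and nr1h3 are lowest in planktivores of 2023.

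Retinoid receptors comprise the RARs, which bind all-trans retinoic acid, and the RXRs, the shared partners of many other receptors. All 6 members of this class were tested in every comparison and none was DT by edgeR or DESeq2. The class ran from rxrbb, with 53.2 TPM, to rxraa, with 3.69 TPM. Of all 45 members, rxrbb had the smallest spread within groups. It had 88.8, 94.5 and 89.6 CPM in piscivores of 2023 and 102, 111 and 105 CPM in planktivores of 2023. In 2022 it had 77.5, 80.9 and 71.8 CPM in piscivores and 85.5, 86.7 and 91.3 CPM in planktivores. In both years all 3 piscivores were below all 3 planktivores, with a log2FC over both years of -0.21 (SE 0.07, adjusted p = 0.161, and 0.0125 by DESeq2). The second RXR beta gene, rxrba, had 62.2, 59.6 and 66.2 CPM in piscivores of 2023 against 92.7, 74.2 and 79.5 CPM in piscivores of 2022, without overlap (log2FC -0.40, SE 0.13, adjusted p = 0.208). The RAR gamma gene rarga varied more within groups, between 12.0 and 24.9 CPM in piscivores of 2023 alone.

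Of 30 listed genes of retinoid supply and targets, 17 were in the table and 16 were tested. Between years in planktivores, DESeq2 called 1 and edgeR 0. Between phenotypes in 2023, 2 were DT, both higher in piscivores, beside 0.168% of all genes. The retinol transporter gene stra6 had 15.9, 13 and 12.8 CPM in piscivores against 5.06, 5.61 and 3.47 CPM in planktivores (log2FC 1.58, SE 0.21, adjusted p = 0.0471). The retinoid isomerase gene rpe65a had 15.5, 15.3 and 9.02 CPM in piscivores against 0.746, 1.87 and 1.06 CPM in planktivores (log2FC 3.42, SE 0.38, adjusted p = 0.0416). In 2022 the levels of both genes overlapped between phenotypes, with 1.4 to 13.8 CPM in piscivores and 2.49 to 11.1 CPM in planktivores for stra6, and 0.280 to 13 CPM and 0.377 to 6.42 CPM for rpe65a. Sums of telencephalon and meninges markers went with these levels in part. The 11 telencephalon markers summed to 112 to 215 TPM in piscivores of 2023 and 69.2 to 86.7 TPM in planktivores of 2023, without overlap, and overlapped in 2022, with 29.9 to 161 TPM in piscivores and 42.4 to 113 TPM in planktivores. The 11 meninges markers overlapped in 2023, with 537 to 668 TPM in piscivores and 421 to 586 TPM in planktivores. In 2022 they summed to 663, 463 and 438 TPM in piscivores and 299, 579 and 588 TPM in planktivores, where stra6 had 13.8, 1.4 and 3.94 CPM and 2.49, 11.1 and 9.20 CPM, so the highest piscivore and the lowest planktivore were the same for both. Of the markers of both lists, emx3 of the telencephalon list was at 0 in at least 1 library, and the part of these tissues in stra6 and rpe65a was not tested. In a single fit of all 12 libraries the adjusted p-values of stra6 and rpe65a in 2023 were 0.379 and 0.256. The call of stra6 was lost without any 1 library, and that of rpe65a without any 1 library except planktivore 5 of 2023 (adjusted p up to 0.167 and 0.151).

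The peroxisome proliferator-activated receptors (PPARs) bind fatty acids and control lipid oxidation and storage. The 4 members lay close in level, from ppardb with 9.77 TPM to pparg with 5.24 TPM, and none was DT in any comparison by edgeR or DESeq2. In 2023, pparaa (chromosome 20, 14700776 to 14715515) had 10.2, 9.54 and 9.65 CPM in piscivores against 6.84, 6.71 and 6.70 CPM in planktivores. All 3 piscivores were above all 3 planktivores (log2FC 0.56, SE 0.14, adjusted p = 0.160). In 2022 the direction was the other one, with 8.32, 6.16 and 10.1 CPM in piscivores and 10.1, 11.1 and 9.84 CPM in planktivores, which overlapped (log2FC -0.32, SE 0.21, adjusted p = 0.811). The change between years was 0.87 on the log2 scale (SE 0.23, adjusted p = 0.479). Within planktivores, pparaa was lower in 2023 than in 2022 without overlap (log2FC -0.61, SE 0.13, adjusted p = 0.0713).

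The second PPAR alpha gene, pparab (chromosome 7, 5899552 to 5931697), had 15.6, 11.2 and 12.2 CPM in piscivores of 2022 against 21.3, 23.3 and 21.7 CPM in planktivores of 2022. The groups did not overlap (log2FC -0.75, SE 0.16, adjusted p = 0.252, and 0.027 by DESeq2). In 2023 it had 13.4, 17.2 and 16.7 CPM in piscivores and 15.5, 19.8 and 19.5 CPM in planktivores, which overlapped (log2FC -0.19, adjusted p = 0.637). Over both years the log2FC was -0.49 (SE 0.13, adjusted p = 0.106).

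Of 26 listed PPAR target genes, 17 were in the table and tested. None was DT by edgeR. At an unadjusted p below 0.05, 2 were higher in piscivores than in planktivores of 2023, beside 8.90% of all genes. Within piscivores, 3 were higher in 2023 than in 2022, beside 7.14%. In both comparisons 0 were lower, beside 4.78% and 10.2%. DESeq2 called 1 in each of these comparisons, with no share of all genes beside it. The lipoprotein lipase gene lpl had 34.2, 29.4 and 47.7 CPM in piscivores of 2023 against 13, 14.8 and 17.2 CPM in piscivores of 2022 (log2FC 1.3, SE 0.20, adjusted p = 0.0505). The lipase inhibitor gene angptl4 had 89.3, 69.9 and 108 CPM in piscivores of 2023 against 63.4, 46.5 and 37.1 CPM in planktivores of 2023 (log2FC 0.89, SE 0.23, adjusted p = 0.172). In 2022 angptl4 had 56.1, 53.8 and 89.2 CPM in piscivores and 55.8, 60.7 and 60.3 CPM in planktivores, so its piscivores overlapped between years.

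Oxysterol, bile acid and xenobiotic receptors control cholesterol efflux, bile acid synthesis and detoxification, in mammals mainly in liver and gut. In these brains the oxysterol receptor gene nr1h3 (LXR alpha, chromosome 3, 40685099 to 40700545) stood far above the rest of its class, with 25.3 TPM beside 0.808 TPM for nr1h5 (FXR beta), 0.673 TPM for nr1i2 (the pregnane X receptor) and 0.215 TPM for nr1h4 (FXR alpha). In 2023, nr1h3 had 29.5, 26.2 and 28.2 CPM in piscivores against 20.1, 20.9 and 23.2 CPM in planktivores, without overlap (log2FC 0.40, SE 0.12, adjusted p = 0.217). Libraries of 2022 had 30.4, 26.8 and 36.8 CPM in piscivores and 32.1, 33.9 and 28.3 CPM in planktivores, which overlapped. The planktivores of 2023 were the lowest of the 12 libraries. Within planktivores the log2FC of 2023 over 2022 was -0.55 (SE 0.12, adjusted p = 0.0734, and 0.0152 by DESeq2).

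The summed level of the 9 microglia markers differed in the same direction between phenotypes in 2023. It was 1966 to 2505 TPM in piscivores against 913 to 1482 TPM in planktivores, and the part of each marker in it was not tested. In 2022 the 9 markers summed to 1638 to 2622 TPM in piscivores and 1362 to 1685 TPM in planktivores, which overlapped. The marker apoeb is also among the sterol target genes listed below, so these sums are not separate from that list. In 2023 apoeb had 1855, 1993 and 1517 CPM in piscivores against 1414, 1077 and 652 CPM in planktivores. These values are in CPM and the sums in TPM, but both are of similar size. The sums may therefore mostly reflect this 1 gene and not the set of 9. None of the 9 was at 0 in any library, and their part, like that of the telencephalon markers, in the differences of nr1h3 and pparaa was not tested. Among low members, nr1i2 had 0.723, 0.699 and 0.603 CPM in piscivores of 2023 against 0.497, 0.550 and 0.297 CPM in planktivores of 2023, from 9 to 27 counts per library (log2FC 0.60, SE 0.37, adjusted p = 0.522). Of 23 listed sterol target genes, 14 were in the table and 12 were tested, and none was DT by edgeR in any comparison, while DESeq2 called 1 over both years. At an unadjusted p below 0.05, 1 was higher in piscivores and 2 lower in 2023, beside 8.90% and 4.78% of all genes. In 2022, 2 were higher and 1 lower, beside 4.30% and 2.95%. The smallest p of the list over both years was that of the sterol transporter gene abcg8, with 1.42, 0.954 and 0.632 CPM in piscivores of 2023 against 0.829, 0.550 and 0.429 CPM in planktivores of 2023. In 2022 the gene had 0.655, 1.51 and 1.73 CPM in piscivores against 0.282, 0.372 and 0.479 CPM in planktivores (log2FC over both years 1.23, SE 0.34, adjusted p = 0.113).

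The steroid receptors taken here bind estrogens (esr1, esr2a, esr2b) and progestins (pgr) and are known for their part in reproductive brain circuits. They were low in these immature fish, from esr1 with 2.19 TPM to esr2a with 0.299 TPM. None was DT by edgeR or DESeq2 in any comparison. The estrogen receptor gene esr2a (chromosome 19, 8917714 to 8937450) had 1.1, 0.827 and 1.01 CPM in piscivores of 2023, against 0.459, 0.336 and 0.210 CPM in piscivores of 2022. These values rest on 41, 13 and 35 counts and on 7, 6 and 4 counts. All 3 libraries of 2023 were above all 3 of 2022, with the largest year difference of any tested member (log2FC 1.56, SE 0.42, adjusted p = 0.165). In planktivores the years overlapped, with 0.290, 0.853 and 0.330 CPM in 2023 and 0.282, 0.507 and 0.511 CPM in 2022. The piscivore of 2023 with 1.4 TPM of pituitary markers had 1.01 CPM of esr2a, and the pair with 4698 and 4014 TPM had 1.1 and 0.827 CPM. The part of pituitary tissue in the levels of esr2a was not tested.

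Of 29 listed genes of steroid supply and targets, 19 were in the table and 17 were tested. DESeq2 called 2 between phenotypes in 2022 and 1 between years in piscivores, where edgeR called 0. Between phenotypes in 2023, 1 was DT, beside 0.168% of all genes: srd5a2b, a steroid 5-alpha-reductase gene, with 3.88, 4.01 and 2.58 CPM in piscivores against 0.746, 0.853 and 0.661 CPM in planktivores (log2FC 2.22, SE 0.29, adjusted p = 0.0457). In 2022 its values overlapped, with 4.32, 0.672 and 0.631 CPM in piscivores and 0.753, 2.60 and 1.60 CPM in planktivores. The highest piscivore and the lowest planktivore of 2022 were the same for srd5a2b as for stra6 and the meninges marker sum. The part of telencephalon and meninges tissue in srd5a2b was not tested. Between years in planktivores, 1 was DT, beside 0.971% of all genes: hsd17b12a, with 29.9, 23.6 and 34.5 CPM in 2023 against 13.3, 11.3 and 14.8 CPM in 2022 (log2FC 1.16, SE 0.18, adjusted p = 0.0364). Its product belongs to the 17-beta-hydroxysteroid dehydrogenases and also elongates fatty acids. Over both years 0 of the list were DT, beside 0.298% of all genes. The gene hsd11b2, which inactivates cortisol, was higher in piscivores over both years (log2FC 0.81, SE 0.14, adjusted p = 0.0297). Its log2FC was below 1, so it was not DT. It had 9.37, 8.14 and 8.59 CPM against 6.75, 5.75 and 5.48 CPM in planktivores of 2023 and 7.40, 11 and 9.30 CPM against 3.86, 4.63 and 4.63 CPM in planktivores of 2022. The phenotypes did not overlap in either year. The adjusted p of srd5a2b was 0.207 in a single fit of all 12 libraries. It rose above 0.05 without any 1 library (up to 0.200), that of hsd17b12a without any except planktivore 5 of 2023 (up to 0.148), and that of hsd11b2 without piscivore 3 of 2022, piscivore 1 or 2 of 2023, planktivore 5 or 6 of 2023 or any planktivore of 2022 (up to 0.103).

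Of the orphan receptors, those related to the estrogen receptor act on energy metabolism and bind no estrogen. The class ran from esrra with 16.2 TPM to esrrd with 0.103 TPM, and none of the 4 tested members was DT by edgeR or DESeq2 in any comparison. All 4 had negative log2FC values of piscivores over planktivores in both years. At an unadjusted p below 0.05, 2 were lower in 2023 and 0 in 2022, beside 4.78% and 2.95% of all genes. In 2023, esrrb had 4.90, 8.27 and 13 CPM in piscivores against 17.0, 14.3 and 15.5 CPM in planktivores (log2FC -0.82, SE 0.32, adjusted p = 0.328). The gene esrrgb had 3.51, 6.61 and 6.37 CPM in piscivores of 2023 against 6.71, 10.6 and 9.84 CPM in planktivores of 2023 (log2FC -0.71, SE 0.29, adjusted p = 0.341). In both, the 3 piscivores lay below the 3 planktivores.

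Within groups, esrrga (chromosome 3, 15741919 to 15916471) varied most among members above 1 TPM. It had 10.6, 40.2 and 44.0 CPM in piscivores of 2023 and 25.9, 62.1 and 45.5 CPM in planktivores of 2023. Libraries of 2022 had 20.8, 62.4 and 14.8 CPM in piscivores and 23.6, 53.0 and 65.7 CPM in planktivores. The 14 hox genes that mark hindbrain and spinal cord summed, in the same order of libraries, to 0.517, 51.9 and 5.0 TPM, to 1.03, 103 and 1.04 TPM, to 1.4, 90.4 and 0.276 TPM, and to 1.0, 69.5 and 182 TPM. Of these 14 genes, 11 were at 0 in at least 1 library. The 5 libraries with over 50 TPM of these markers had 40.2 to 65.7 CPM of esrrga, and the 7 with up to 5.0 TPM had 10.6 to 45.5 CPM. The part of hindbrain and spinal cord tissue in these levels was not tested.

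**Figure D5:**
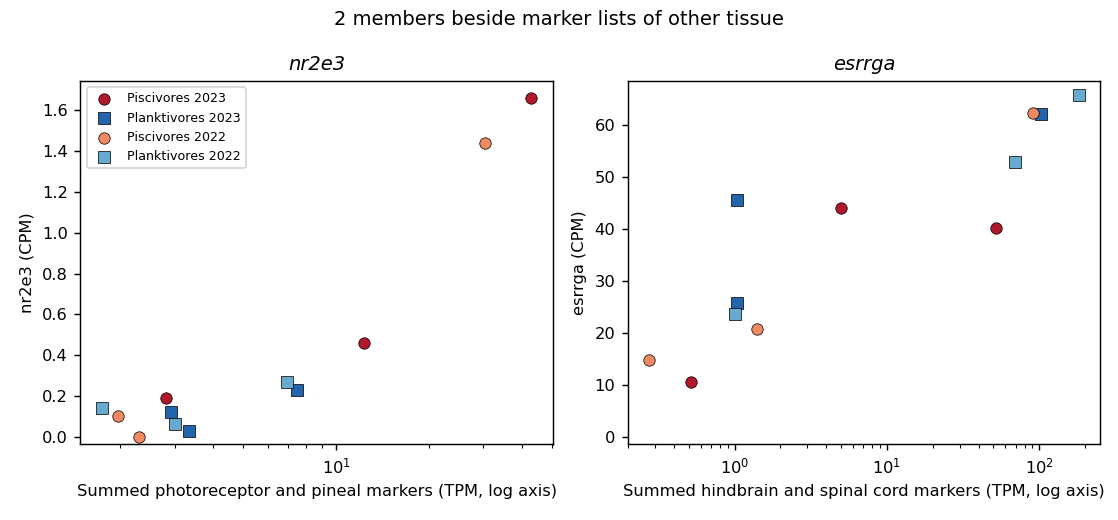
Level of nr2e3 (left) and esrrga (right) in CPM against the summed level of photoreceptor and pineal markers or of hindbrain and spinal cord markers in TPM (log axis), 1 point per library. The 3 highest libraries of nr2e3 are those with the highest photoreceptor and pineal sums, and libraries with more than 50 TPM of hox markers have at least 40.2 CPM of esrrga.

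The COUP transcription factors pattern the developing forebrain, TLX (nr2e1) maintains neural stem cells, and the photoreceptor receptor nr2e3 directs rod fate in retina. The class ran from nr2f1a with 71.0 TPM to nr2e3 with 0.378 TPM, and 0 of its 7 members were DT by edgeR or DESeq2. In piscivores, nr2f2 had 213, 146 and 157 CPM in 2023 against 119, 73.1 and 120 CPM in 2022, without overlap (log2FC 0.72, SE 0.24, adjusted p = 0.209). In planktivores the years overlapped, with 142, 139 and 179 CPM in 2023 and 79.8, 157 and 86.1 CPM in 2022. In 2023, nr2f6a had 34.1, 31.7 and 36.1 CPM in piscivores against 41.7, 40.5 and 51.3 CPM in planktivores (log2FC -0.37, SE 0.14, adjusted p = 0.298).

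The gene nr2e3 (chromosome 7, 11346848 to 11349951) passed the filter only in the fits of all 12 libraries. It had 62, 3 and 16 counts in piscivores of 2023 and 3, 1 and 7 counts in planktivores of 2023. In 2022 the gene had 22, 0 and 2 counts in piscivores and 3, 8 and 2 counts in planktivores. Over both years its log2FC was 2.15 (SE 0.86, adjusted p = 0.263). The libraries with 62, 22 and 16 counts were those with the highest sums of 11 photoreceptor and pineal markers, 42.9, 30.4 and 12.3 TPM, against 1.74 to 7.46 TPM in the other 9. Of these markers, gnat1, gnat2, crx, saga, sagb and aanat2 were at 0 in at least 1 library, and the part of that tissue in nr2e3 was not tested.

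The testicular receptors TR2 (nr2c1) and TR4 (nr2c2) and the germ cell nuclear factor nr6a1a are named for where they were first found. Their levels here ran from 13.3 TPM for nr2c2 to 0.687 TPM for nr6a1a, and none was DT by edgeR or DESeq2. In 2023, nr2c2 had 23.5, 25 and 24.8 CPM in piscivores against 30.8, 36.5 and 35.1 CPM in planktivores, without overlap (log2FC -0.46, SE 0.12, adjusted p = 0.167, and 0.0369 by DESeq2). Libraries of 2022 had 36.9, 24.8 and 22.2 CPM in piscivores and 31.9, 35.4 and 31.4 CPM in planktivores, where 1 piscivore was the highest library of all. Over both years the log2FC was -0.36 (SE 0.12, adjusted p = 0.172). With each library left out in turn, the adjusted p ran from 0.0223, without that piscivore (replicate 1 of 2022), to 0.344. Within planktivores, nr2c1 had 25.8, 24.1 and 27.6 CPM in 2023 against 15.8, 20.1 and 20.2 CPM in 2022 (log2FC 0.47, SE 0.13, adjusted p = 0.120). In the same comparison nr6a1a had 0.994, 0.688 and 0.628 CPM in 2023 against 1.65, 1.15 and 1.31 CPM in 2022 (log2FC -0.83, SE 0.33, adjusted p = 0.215).

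DAX-1 (nr0b1) and SHP lack the DNA-binding domain and repress other nuclear receptors, and LRH-1 (nr5a2) is an activator that DAX-1 and SHP repress in mammals. The DAX-1 gene averaged 4.37 TPM and the SHP genes 0.0823 TPM (nr0b2a) and 0.0591 TPM (nr0b2b). In planktivores, nr0b1 had 4.77, 4.1 and 4.0 CPM in 2023 against 2.49, 3.11 and 2.62 CPM in 2022, without overlap (log2FC 0.64, SE 0.20, adjusted p = 0.141). In 2023 it was below all planktivores in all 3 piscivores, with 3.43, 2.86 and 2.12 CPM (log2FC -0.59, SE 0.24, adjusted p = 0.338). For nr5a2 (chromosome 11, 1865590 to 1939800), planktivores had 5.64, 5.53 and 5.35 CPM in 2023 against 2.26, 2.67 and 2.27 CPM in 2022, without overlap. This was the DT call between years (log2FC 1.2, SE 0.18, adjusted p = 0.0364). Piscivores had 4.45, 2.99 and 3.30 CPM in 2023 against 1.64, 2.91 and 2.00 CPM in 2022, again without overlap (log2FC 0.71, SE 0.30, adjusted p = 0.281). Between phenotypes in 2023 the log2FC of nr5a2 was -0.59 (SE 0.21, adjusted p = 0.285).

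The call of nr5a2 was lost when any 1 of the 6 planktivore libraries was left out (adjusted p 0.0772 to 0.148), with log2FC values of 1.13 to 1.28. The piscivores of 2023 with 4698, 4014 and 1.4 TPM of pituitary markers had 4.45, 2.99 and 3.30 CPM of nr5a2, and the planktivores of 2023 with 843, 6.7 and 1.1 TPM had 5.64, 5.53 and 5.35 CPM. The part of pituitary tissue in the levels of nr5a2 was not tested. The second gene of this class, nr5a5, averaged 0.0558 TPM.

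Among the cofactors, ppargc1a and ppargc1b encode coactivators of PPARs and estrogen-related receptors that drive mitochondrial genes, and thrap3a and thrap3b encode a protein of transcription and splicing. Their levels ran from 24.5 TPM for thrap3b to 8.02 TPM for ppargc1a, and none was DT by edgeR or DESeq2. In 2023, thrap3a had 26.9, 22.4 and 23.2 CPM in piscivores against 14.5, 17.0 and 16.6 CPM in planktivores, without overlap (log2FC 0.61, SE 0.13, adjusted p = 0.134, and 0.0129 by DESeq2). In 2022 its values overlapped, with 19.9, 21.1 and 28.1 CPM in piscivores and 25.9, 18.0 and 21.3 CPM in planktivores. In piscivores, ppargc1b had 35.4, 34.5 and 43.3 CPM in 2023 against 47.2, 58.7 and 47.9 CPM in 2022, without overlap (log2FC -0.45, SE 0.14, adjusted p = 0.198).

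A list of 32 coregulator genes, of which 27 were in the table and tested and 4 are the cofactors above, was compared in the same way. At an unadjusted p below 0.05, 0 were higher and 11 lower in piscivores of 2023 than of 2022, beside 7.14% and 10.2% of all genes. In planktivores 3 were higher and 12 lower, beside 8.53% and 11.5%. The list medians of both year comparisons were -0.33 and -0.26, beside 0.01 and 0.00 over all genes. Over all genes tested, the year difference also went down with exon length (Spearman's rho -0.26 and -0.21). The part of exon length and of the ribosomal RNA share in the year differences of this list was not tested. Year cannot be told apart from batch, body size or developmental stage. DT were 1 in piscivores, beside 0.356% of all genes, and 2 in planktivores, beside 0.971%, all lower in 2023. DESeq2 called 2 in each phenotype. The steroid receptor coactivator gene ncoa1 had 4.45, 4.58 and 7.06 CPM in piscivores of 2023 against 24.8, 17.9 and 18.2 CPM in piscivores of 2022 (log2FC -1.92, SE 0.23, adjusted p = 0.0168). In planktivores it had 4.81, 7.65 and 6.04 CPM in 2023 against 23.3, 30.4 and 32.0 CPM in 2022 (log2FC -2.20, SE 0.21, adjusted p = 0.00889). Every library of 2023 was thus below every library of 2022 in both phenotypes. The adjusted p rose above 0.05 without piscivore 3 of 2022 (0.0785) or piscivore 2 of 2023 (0.140), and in planktivores without planktivore 6 of 2023 (0.0670).

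The corepressor gene lcor had 1.74, 3.36 and 2.41 CPM in planktivores of 2023 against 8.76, 10.6 and 9.11 CPM in planktivores of 2022 (log2FC -1.91, SE 0.25, adjusted p = 0.0272). That adjusted p rose above 0.05 without any 1 planktivore of 2022, or without planktivore 6 of 2023 (up to 0.130). In piscivores lcor had 1.37, 1.53 and 3.10 CPM in 2023 against 5.05, 4.43 and 5.31 CPM in 2022, also without overlap (log2FC -1.30, SE 0.34, adjusted p = 0.159). Of 8 listed ROR and HNF4 receptor genes outside the rule, 6 were in the table and 3 were tested. DESeq2 called 1 between years in piscivores, where edgeR called 0. Between years in planktivores 1 was DT, beside 0.971% of all genes: rorb, an orphan receptor of retina and cortex. It had 2.61, 3.03 and 2.38 CPM in planktivores of 2023 against 8.80, 6.79 and 9.24 CPM in planktivores of 2022 (log2FC -1.63, SE 0.20, adjusted p = 0.0237, and up to 0.122 without planktivore 2 or 4 of 2022 or planktivore 4 or 6 of 2023). In piscivores rorb had 2.36, 2.92 and 4.94 CPM in 2023 against 7.73, 7.51 and 7.93 CPM in 2022, also without overlap (log2FC -1.18, SE 0.28, adjusted p = 0.137). The phenotype comparisons called 0 coregulators by edgeR and by DESeq2. At an unadjusted p below 0.05, 1 was higher and 3 lower in piscivores of 2023, beside 8.90% and 4.78% of all genes. In piscivores of 2022, 1 was higher and 2 lower, beside 4.30% and 2.95%.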

How the data were processed

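The authors trimmed the reads with Trimmomatic, aligned them with STAR 2.5.2 to the pikeperch genome SLUC_FBN_1.2 and counted unique reads within exons with featureCounts. The deposited count table holds whole-number counts per gene, not normalised. The deposited TPM values are those counts divided by exon length and scaled to the same sum in each library (395844 of 395844 values matched within 0.001), and they were used only for levels and marker sums. Whether counting used strand is not given in the sources used here. The 24 lines that name no gene (0.589% to 3.18% of counts) were left out. The 3 libraries of a group are separate fish.

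Genes kept by filterByExpr were tested with edgeR (version 4.0.16, R 4.3.3), TMM normalisation and robust quasi-likelihood F tests, in the 6 libraries of each pair of groups or in all 12 with year or its interaction as a term. Standard errors are the log2 fold change divided by the square root of F. Fold changes are piscivore over planktivore or 2023 over 2022. DT means a log2 fold change beyond 1 in either direction with an adjusted p below 0.05, as in the study. The DESeq2 test that the study used was an alternative, run here with version 1.42.0. Other alternatives were DESeq2 size factors, other filters, the 20 most counted genes left out, ribosomal RNA genes left out (chosen after seeing the data), 1 fit of all 4 groups, a replicate block, no fold threshold, CPM for TPM, and each library left out. Shares of all genes were taken with edgeR only, so counts of list genes called by DESeq2 have no such share beside them. The fits were tested on simulated data.

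Members, classes, pathway lists and marker lists were chosen with earlier results of these data known. Receptor genes that the table lists only under LOC identifiers, other than vdrb and vdra, were not analysed here, nor were the 8 nr1d, nr3c and nr4a genes of the table. Members described with values were those with an adjusted p below 0.05 or an unadjusted p below 0.01 in any comparison, the 3 largest changes in each direction among members whose groups did not overlap, the highest and lowest TPM of each class, and both vitamin D receptors; from lists, genes with an adjusted p below 0.05 or the smallest p. A listed gene that met this rule is not reported here. Others (rxrba, rarga, nr2f6a, esrrga, nr2e3) were chosen after their values were seen.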

Additional observations from a re-analysis of the deposited data

Results flagged for a closer look

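The year difference of vdrb ran in opposite directions in the phenotypes: all 3 piscivores of 2023 were above all 3 piscivores of 2022, and all 3 planktivores of 2023 were below all 3 planktivores of 2022. The difference between these contrasts was 0.99 on the log2 scale (standard error 0.18), with adjusted p = 0.169 by edgeR's test over all genes, and 0.00197 to 0.185 under the alternatives with all 12 libraries.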

How the results depend on the processing

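The counts of DT members between phenotypes in 2023, between years in piscivores, between phenotypes over both years and for phenotype by year stayed at 0 under each alternative. The 1 member called between phenotypes in 2022 and the 1 called between years in planktivores were called under DESeq2, other size factors, other filters, the 20 most counted genes left out and the single fit, but their count ranged from 0 to 0 when each library was left out in turn. With a replicate block the count in 2022 was also 0 (vdrb -1.26, adjusted p = 0.0667). Deviations of same-numbered libraries had correlations of -0.05 and 0.02 in 2022 and -0.31 in 2023. Between years they were -0.05 and 0.14 in piscivores and -0.22 in planktivores. With so few shared numbers these values cannot settle whether libraries were paired, and the main fits did not pair them. Of 548 refits of 40 gene results, 547 kept their direction. The exception was vdra between phenotypes in 2023, with a log2 fold change of 0.00042 without planktivore 5 (range when each library was left out, -0.43 to 0.00042). With CPM in place of TPM, 34 members averaged above 1, beside 33. With 3 libraries a group, members with few counts (esr2a, nr1i2, nr2e3) had standard errors of 0.37 to 0.86 in the comparisons described.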

Other observations

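Across members, the phenotype difference went down with exon length (Spearman's rho -0.46 over 40 members in 2023 and -0.35 over 39 in 2022), while over all genes tested rho was 0.00 and 0.01. Members share libraries and are not independent, so this is a description without a test.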
